A study of Mus musculus with 6 samples.

Results

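Estrogen receptor alpha (ERα) binding in the mouse uterus was mapped by chromatin immunoprecipitation and sequencing (ChIP-seq). A peak was listed in every ligand-treated group except wild-type mice given fulvestrant at 7644 merged regions. These regions were chosen by the peak calls themselves. Peaks of all 6 libraries were merged wherever they overlapped by at least 1 bp, which gave 65146 regions. A region was kept if it held a peak of AF-2 mutant ICI, of AF-2 mutant Tam and of WT Tam, and no peak of WT ICI, whatever the vehicle libraries showed. The 7644 regions, called WT ICI-missing regions here, were 11.7% of all merged regions and 12.0% of the 63548 regions with a peak of any ligand library.

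The libraries came from ovariectomized C57BL/6J females aged 12 weeks, injected once into the peritoneum and examined after 1 h. AF-2 mutant mice carried a knock-in that alters activation function 2 (AF-2) of ERα, and received fulvestrant (ICI182780, ICI) at 2 mg/kg, tamoxifen (Tam) at 2 mg/kg, or 50 µl of DMSO as vehicle (Veh). Wild-type (WT) littermates received the same 3 treatments, and all 6 groups shared the ovariectomy and the solvent. Each group had 6 animals and gave 1 library, with no word in the labels on how tissue was combined, so there were no replicates and no spread between animals. A further code in the titles, E1h, is left unexplained by the labels. Whole uterus mixes epithelium, stroma and muscle, so fewer cells of a type and less binding per cell cannot be told apart. The deposited lists hold positions only. Read depth and peak heights are unknown, and "missing" means that no peak was listed, not that the receptor was absent.

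ERα is a nuclear receptor that binds DNA as a dimer, often at estrogen response elements, and recruits coactivators or corepressors according to the ligand it holds. Estradiol folds the last helix of the ligand-binding domain into the AF-2 surface, to which coactivators dock. Tamoxifen displaces that helix and has agonist activity in some tissues, the rodent uterus among them, where it is known as a partial agonist. Fulvestrant displaces the helix too, impairs the receptor's function and promotes its degradation, and is known as an antagonist in the uterus. In mice whose AF-2 is mutated, compounds of both kinds have been described as agonists in some tissues.

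WT ICI was by far the ligand library most often missing where the other 3 agreed. Of the 22788 regions held by AF-2 mutant ICI, AF-2 mutant Tam and WT Tam, 33.5% had no WT ICI peak (exact 95% interval 32.9 to 34.2). AF-2 mutant ICI was missing from 2.84% of the 15586 regions held by the other 3 ligand libraries (2.58 to 3.11), which were 442 regions. AF-2 mutant Tam was missing from 9.56% of 16744 (9.11 to 10.01, 1600 regions) and WT Tam from 9.67% of 16766 (9.23 to 10.1, 1622 regions). Fulvestrant in the wild type therefore left more regions with a single gap than the other 3 ligand libraries together. The WT ICI list was also the shortest of the 4, with 26482 peaks, against 45837 for AF-2 mutant ICI, 36538 for AF-2 mutant Tam and 37327 for WT Tam. A shorter list and fewer bound sites cannot be told apart in this design. These intervals, like all those below, cover counting error only, and with 1 library a group no difference between groups was tested.

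**Figure D1:**
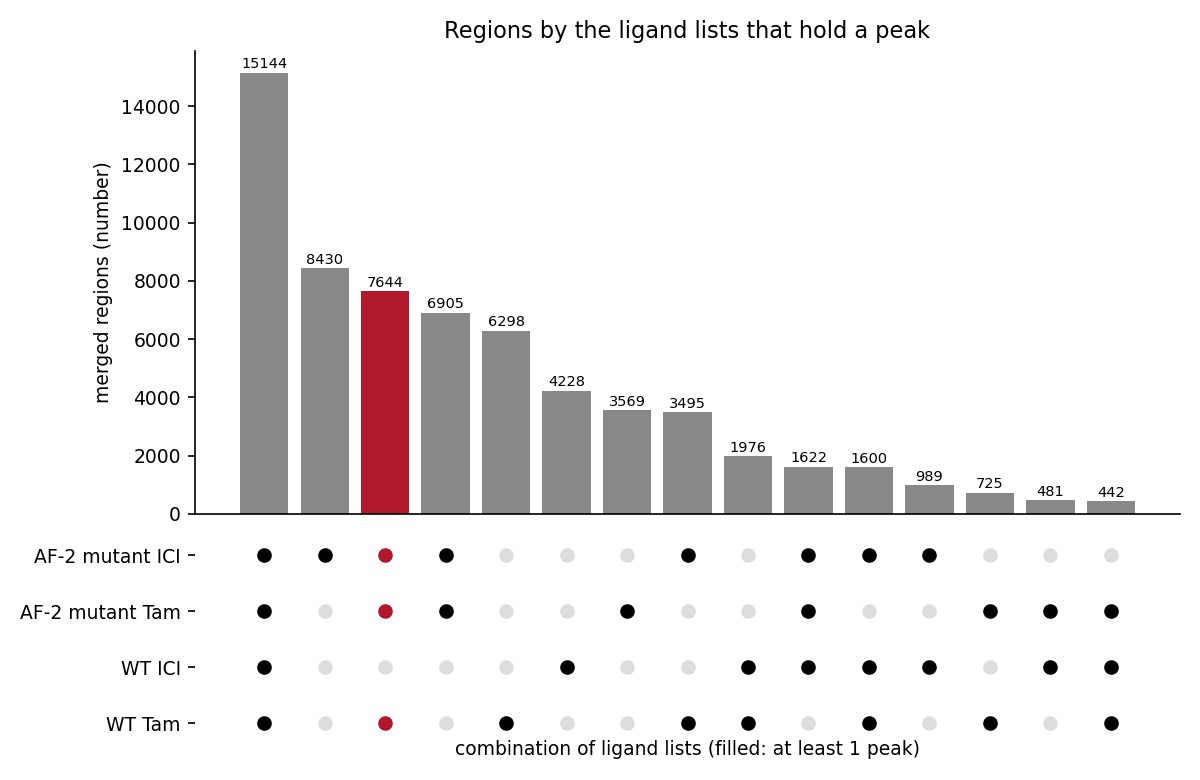
Number of merged regions (bars) for each of the 15 combinations of the 4 ligand lists, with filled dots for the lists that held a peak. The WT ICI-missing regions (red, 7644) were the third most frequent combination, after the 15144 regions held by all 4 lists and the 8430 held by AF-2 mutant ICI alone.

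The WT ICI-missing regions took up similar parts of the 3 lists that define them. They held 7644 of the AF-2 mutant ICI peaks (16.7% of that list), 7645 of the AF-2 mutant Tam peaks (20.9%) and 7644 of the WT Tam peaks (20.5%). Of the regions, 7643 held exactly 1 peak of each of these lists, and 1 held an extra AF-2 mutant Tam peak. The regions had a median width of 221 bp (quartiles 213 and 236), where a single peak is 200 bp wide. Of the 15144 regions held by all 4 ligand lists, 15136 also held exactly 1 peak of each of these 3 lists, and their median width was 230 bp. Neither trait was thus particular to the WT ICI-missing regions.

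Vehicle libraries were the only ones whose peaks the rule neither required nor excluded. Their peaks did take part in the merging and could bridge neighbouring peaks, so they were not fully independent of the choice of regions. Most WT ICI-missing regions, 6890 or 90.1%, held no vehicle peak of either genotype. AF-2 mutant Veh peaks lay in 629 of them (8.23%, 7.62 to 8.87), beside 5.87% of all regions with a ligand peak. WT Veh peaks lay in 383 (5.01%, 4.53 to 5.52), beside 5.21% of all regions with a ligand peak. Either vehicle was present in 754 (9.86%, 9.20 to 10.6), beside 9.51% of all ligand regions, and both were present in 258 (3.38%, 2.98 to 3.805), beside 1.57% of all ligand regions. Read against all ligand regions, the WT ICI-missing regions held WT Veh peaks and peaks of either vehicle at close to the general share, and AF-2 mutant Veh peaks and peaks of both vehicles at a higher share.

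The nearest counterpart was the core, the 15144 regions held by all 4 ligand lists, which differ from the WT ICI-missing regions by the WT ICI peak alone. AF-2 mutant Veh peaks lay at similar shares of both, 8.23% of the WT ICI-missing regions and 8.60% of the core (8.16 to 9.06). The order of these values turned when peaks had to overlap by 100 bp to be joined, to 8.16% and 7.49%. With gaps of up to 100 bp joined they were 8.20% and 9.26%. With gaps of up to 300 bp joined they were 8.39% (7.76 to 9.06) and 10.02% (9.55 to 10.5). Peaks of both vehicles also lay at similar shares, 3.38% of the WT ICI-missing regions and 3.03% of the core (2.76 to 3.32). WT Veh peaks, in contrast, lay in 5.01% of the WT ICI-missing regions and in 14.2% of the core (13.6 to 14.8). Sites without a WT ICI peak thus held wild-type vehicle peaks less often than core sites, with intervals far apart. For the mutant's vehicle peaks the gap was smaller, and its order depended on the merging.

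Regions missing from other single libraries gave a further yardstick. WT Veh peaks lay in 5.01% of the WT ICI-missing regions, against 10.2% of those missing only from AF-2 mutant ICI (7.52 to 13.4), 6.69% of those missing only from AF-2 mutant Tam (5.51 to 8.02) and 1.79% of those missing only from WT Tam (1.201 to 2.56). AF-2 mutant Veh peaks lay in 8.23% of the WT ICI-missing regions, against 10.9% (8.12 to 14.1), 1.62% (1.06 to 2.37) and 10.5% (9.03 to 12.1) in the same order. Vehicle peaks of a genotype were therefore scarcest where that genotype's own tamoxifen library was the missing one. In the 6905 regions held by AF-2 mutant ICI and AF-2 mutant Tam only, WT Veh peaks were as scarce, at 1.81% (1.51 to 2.15).

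**Figure D2:**
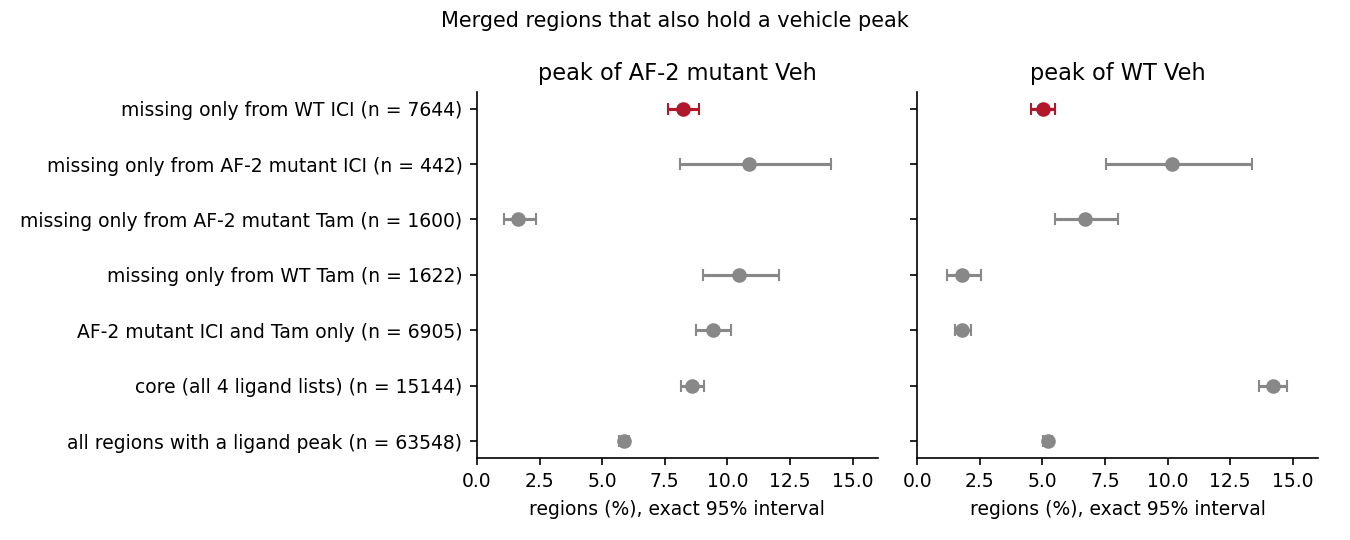
Share of merged regions (%, with exact 95% intervals) that also held a peak of AF-2 mutant Veh (left) or WT Veh (right), for the WT ICI-missing regions (red) and comparison sets (grey). The WT ICI-missing regions and the core lie side by side for AF-2 mutant Veh, at 8.23% and 8.60%, and apart for WT Veh, at 5.01% and 14.2%.

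Regions with a vehicle peak lacked WT ICI less often than those without, and the share depended on which vehicle library was present. Among regions held by the other 3 ligand lists, WT ICI was missing from 20.1% of those with either vehicle peak (18.8 to 21.4, 754 of 3747), against 36.2% of those with neither (35.5 to 36.9). Split by library, it was missing from 6.88% of those with a WT Veh peak and no AF-2 mutant Veh peak (5.76 to 8.15, 125 of 1816). It was missing from 30.6% of those with an AF-2 mutant Veh peak and no WT Veh peak (28.0 to 33.2, 371 of 1214). It was missing from 36.0% of those with both (32.5 to 39.6, 258 of 717). Among these regions held by the other 3 ligand lists, those bound under vehicle in the wild type alone thus nearly always had a WT ICI peak. Over all merged regions with a WT Veh peak only, whatever else they held, 76.7% had one. Of the regions held by the other 3 ligand lists, those with both vehicle peaks lacked WT ICI about as often as those with neither. This near equality depended on the merging. The shares were 39.8% with both and 36.7% with neither when a 100 bp overlap was needed. With gaps of up to 300 bp joined they were 30.6% and 34.6%. The split by vehicle library shows within the sets too. Of the WT ICI-missing regions with a WT Veh peak, 67.4% also held an AF-2 mutant Veh peak (62.4 to 72.0), against 21.3% in the core (19.6 to 23.1).

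At sites bound under vehicle in both genotypes, WT ICI stood apart from the other ligand libraries. It did so too at sites with an AF-2 mutant Veh peak only and at sites with no vehicle peak. Where both vehicle peaks and the other 3 ligand libraries were present, 3.37% of regions lacked AF-2 mutant ICI (1.94 to 5.41, 16 of 475). AF-2 mutant Tam was lacking from 1.29% (0.475 to 2.79, 6 of 465) and WT Tam from 3.77% (2.25 to 5.90, 18 of 477), beside the 36.0% for WT ICI. Sites bound without ligand in both genotypes were thus rarely the single gap of those 3 libraries and often that of WT ICI. With no vehicle peak, WT ICI was missing from a similar 36.2%, AF-2 mutant ICI from 2.92%, AF-2 mutant Tam from 10.8% and WT Tam from 10.6%. With an AF-2 mutant Veh peak only, the shares were 30.6%, 3.66%, 2.32% and 15.3% in the same order. At sites with a WT Veh peak only, each of the 4 was rarely missing where the other 3 were present. The shares were 6.88% for WT ICI, 1.69% for AF-2 mutant ICI (1.13 to 2.41), 5.64% for AF-2 mutant Tam (4.61 to 6.81) and 0.646% for WT Tam (0.323 to 1.15).

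**Figure D3:**
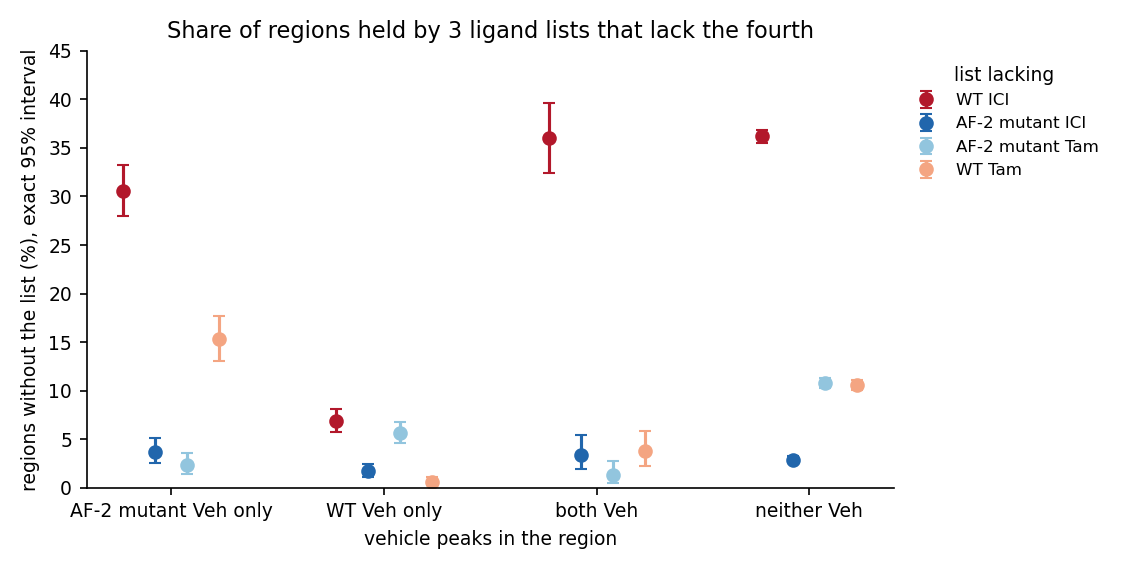
Share (%, with exact 95% intervals) of regions held by 3 ligand lists that lacked the remaining list, grouped by the vehicle peaks in the region. WT ICI (red) was missing from 30.6% to 36.2% of regions in 3 of the 4 vehicle states and from 6.88% of those with a WT Veh peak only, while the other lists were missing from at most 15.3%.

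The peaks of the 3 defining libraries lay nearly on top of each other. Each peak is 200 bp wide. In the 7643 regions with 1 peak of each, the midpoints of AF-2 mutant ICI and AF-2 mutant Tam were a median of 12 bp apart (quartiles 5 and 23), those of AF-2 mutant ICI and WT Tam 13 bp (5 and 24), and those of AF-2 mutant Tam and WT Tam 13 bp (6 and 24). All 3 midpoints fell within 50 bp in 89.8% of regions. The genotypes and the ligands were therefore as far apart within a site as each other. In the core the same 3 distances were 10, 11 and 11 bp, and the span of the 3 midpoints had a median of 21 bp in the WT ICI-missing regions (95% interval 20 to 21) and 18 bp in the core (18 to 18).

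The tighter the 3 peaks, the less often WT ICI was missing, up to a point. WT ICI was missing from 27.8% of regions whose 3 midpoints spanned at most 10 bp (26.6 to 29.0) and from 32.1% at 11 to 20 bp (31.0 to 33.2). The share was 37.6% at 21 to 40 bp (36.5 to 38.8), 39.0% at 41 to 80 bp (37.1 to 40.8) and 31.5% at 81 bp or more (28.2 to 34.8). A wide region offers a larger target for any WT ICI peak, by construction, but whether this bears on these shares was not tested. By vehicle state, the median span in the WT ICI-missing regions was 31 bp with an AF-2 mutant Veh peak only (28 to 34), 23 bp with a WT Veh peak only (18 to 28) and 19.5 bp with both (17 to 21), against 20 bp with neither (20 to 21). In the core, sites with a WT Veh peak only were the tightest, at 12 bp (12 to 13). Where a vehicle peak was present, it sat at the same place: AF-2 mutant Veh midpoints were a median of 18 to 19 bp from those of the 3 ligand libraries, and WT Veh midpoints 15 bp.

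The tightest sites are given as examples, so their alignment follows from how they were picked. Of the 254 WT ICI-missing regions with exactly 1 peak of each of the 3 ligand libraries and both vehicle libraries, leaving out chromosome 18, in which the span of the 5 midpoints ran from 4 to 269 bp with a median of 29 bp, the 5 with the smallest span are named, in mm9 and counted from 1. The tightest lay on chromosome 4 at 45354808 to 45355011, where all 5 midpoints fell within 4 bp. Its peaks started at 45354808 for AF-2 mutant ICI, 45354811 for AF-2 mutant Tam, 45354812 for AF-2 mutant Veh, 45354808 for WT Tam and 45354809 for WT Veh, and the nearest WT ICI peak was 2958 bp away. Next came a site on chromosome 11 at 115264937 to 115265141, with midpoints within 5 bp and the nearest WT ICI peak 20346 bp away. The other 3 had midpoints within 6 bp. On chromosome 5 at 31215576 to 31215781 a WT ICI peak lay 3586 bp away, on chromosome 9 at 18096524 to 18096729 it lay 93449 bp away, and on chromosome 16 at 64770751 to 64770956 it lay 624647 bp away.

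Among the 6640 such regions without a vehicle peak, 7 had identical positions in all 3 ligand libraries. The 5 of them farthest from a WT ICI peak were chromosome 10 at 9460657 to 9460856, 65249 bp from one, chromosome 9 at 96744509 to 96744708, 45232 bp from one, and chromosome 16 at 93518515 to 93518714, 29588 bp from one. The remaining pair lay on chromosome 5 at 129700980 to 129701179 and at 125601562 to 125601761, 7913 and 6619 bp from a WT ICI peak. The genes at these positions are not named, since an mm9 annotation was not used here, and for the same reason no sequence is shown.

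Most WT ICI-missing regions had no WT ICI peak within 1 kb, but a larger share had one than in either comparison set. The median distance to the nearest one was similar to that of core sites, leaving out the core region's own peak. The nearest WT ICI peak was a median of 11032 bp from a WT ICI-missing region (95% interval 10531 to 11613; quartiles 2775 and 33824). It was 11544 bp from a core region, leaving out the core region's own peak (11162 to 11842), and 15442 bp from the 29422 other ligand regions without a WT ICI peak (15063 to 15799). Within 1 kb, 15.4% of the WT ICI-missing regions had a WT ICI peak (14.6 to 16.2), against 11.9% of core regions (11.4 to 12.4) and 10.8% of the other regions without WT ICI (10.5 to 11.2). The core share is not like for like, since a core region already holds a WT ICI peak, which the measure leaves out. Within 200 bp, a WT ICI peak lay beside 4.19% of the WT ICI-missing regions, 0.363% of core regions and 3.04% of the other regions without WT ICI. The missing site therefore often stood among listed WT ICI peaks, at 10 kb and 50 kb about as often as core sites did. Within 10 kb, 47.6% had a WT ICI peak, against 46.3% of core regions and 39.6% of the other regions without WT ICI. Within 50 kb the shares were 83.0%, 84.2% and 78.2% in the same order.

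**Figure D4:**
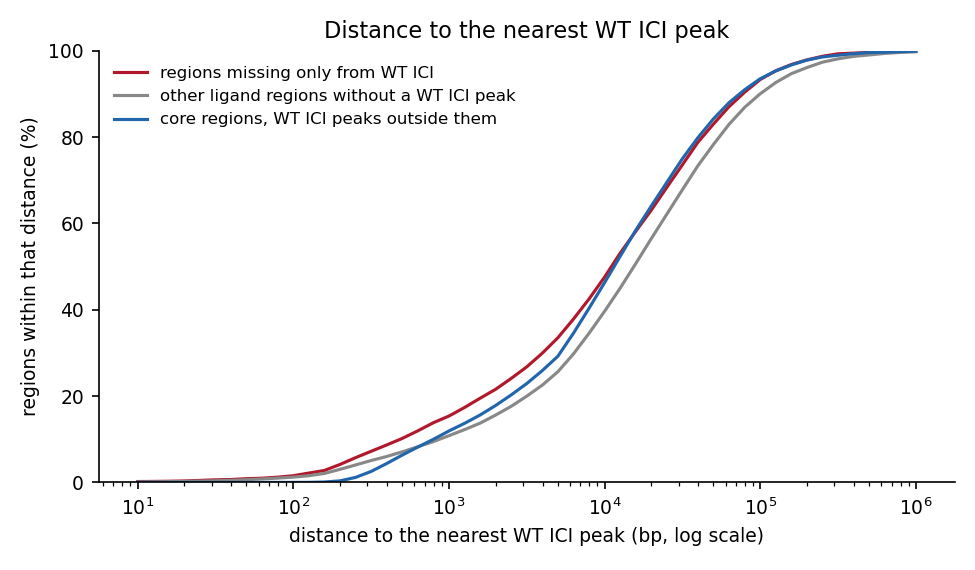
Cumulative share of regions (%) by distance to the nearest WT ICI peak (bp, log scale). The medians were 11032 bp for the WT ICI-missing regions (red), 15442 bp for other ligand regions without a WT ICI peak (grey) and 11544 bp for core regions, measured to WT ICI peaks outside them (blue).

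Shifts of the 1 bp rule by up to 50 bp would decide few regions. A WT ICI peak lay within 10 bp of 16 WT ICI-missing regions and within 50 bp of 66. Wider limits would decide more, with a WT ICI peak within 200 bp of 320 regions (4.19%) and within 1 kb of 1175 (15.4%). The closest, each 2 bp from a WT ICI peak, were chromosome 8 at 89722221 to 89722446 together with 16207089 to 16207309 of chromosome 19. On the other side, 20 core regions had a WT ICI peak that overlapped the other ligand peaks by at most 10 bp, among them 6 joined only through a chain of peaks, and 69 by at most 50 bp. The median overlap in the core was 192 of 200 bp, so most regions lay far from the boundary on both sides.

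Sites with both vehicle peaks had WT ICI and core neighbours farther away at the median, but not fewer WT ICI peaks close by. The nearest WT ICI peak was a median of 20404 bp away where both vehicles were present (14521 to 27301), 10897 bp with AF-2 mutant Veh only (8381 to 15118) and 8940 bp with WT Veh only (5200 to 14570), against 10898 bp with neither (10357 to 11453). Within 1 kb, however, a WT ICI peak lay beside 18.99% of the regions with both, 16.7% of those with AF-2 mutant Veh only and 24.0% of those with WT Veh only, against 15.0% of those with neither. The nearest core region was 47102 bp away with both (38124 to 57653) and 20188 bp away with neither (18985 to 21295). Of the 258 with both, 11 lay on the X chromosome (4.26%), against 135 of the 6890 with neither (1.96%). In the core, sites with both vehicles were 12949 bp from the nearest WT ICI peak outside them (11387 to 15368), against 11195 bp with neither (10778 to 11582). They were 29363 bp from another core region (23736 to 36843), against 19889 bp with neither (19015 to 20655). Such a WT ICI peak lay within 1 kb of 15.3% of them, against 12.2% of core sites with neither. The X chromosome held 2.40% of core sites with both and 1.83% of those with neither.

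WT ICI was missing in nearly even measure along the genome. Over chromosomes 1 to 19 and X, the share of regions without WT ICI, among those held by the other 3 ligand lists, ran from 32.1% on chromosome 5 to 35.5% on chromosome 15, and the X chromosome had 35.3% (30.8 to 39.9). The X chromosome held 157 of the WT ICI-missing regions (2.05%, 1.75 to 2.40), 1.90% of the core (1.69 to 2.13) and 2.101% of all ligand regions (1.99 to 2.22). Per megabase up to the last peak of a chromosome, the autosomes had 3.03 WT ICI-missing regions and the X chromosome 0.943. Among autosomes, chromosome 3 had the fewest (2.11) and chromosome 11 the most (4.35). Crowding made as little difference. WT ICI was missing from 33.8% of sites with 5 or more other such sites within 50 kb (32.4 to 35.2), 32.9% with 2 to 4 (31.9 to 33.8) and 34.2% with 1 (32.8 to 35.5), against 34.0% with none (32.6 to 35.4).

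The WT ICI-missing regions and the core regions, which outnumber them, lay at similar distances from each kind of site. A core region lay within 10 kb of 35.3% of them (34.2 to 36.4), and another WT ICI-missing region within 10 kb of 18.4% (17.6 to 19.3). For core regions these shares were 33.4% for another core region (32.6 to 34.1) and 20.2% for a WT ICI-missing region (19.6 to 20.9). Both kinds of site thus had much the same neighbours. Counting neighbouring sites held by the other 3 ligand lists, with no WT ICI peak between them, 60.6% of the WT ICI-missing regions stood alone, and 3014 (39.4%) formed 1289 runs of 2 or more.

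The longest run spanned 407 kb of chromosome 12, from 110750782 to 111157444. It held 10 WT ICI-missing regions, with 11 AF-2 mutant ICI peaks, 12 AF-2 mutant Tam peaks and 2 AF-2 mutant Veh peaks, against 10 WT Tam peaks and 0 WT Veh peaks, and by the definition of a run no WT ICI peak. Its regions lay between 16881 bp and 120218 bp from the nearest WT ICI peak, the farthest being 110833923 to 110834170. The next run, on chromosome 16 from 35273265 to 35588504, held 7. This stretch had 8 peaks of AF-2 mutant ICI, 8 of AF-2 mutant Tam and 1 of AF-2 mutant Veh, against 8 of WT Tam and 0 of WT Veh. Such stretches were exceptional: 16 runs held 5 or more regions.

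In windows of 100 kb, the WT ICI-missing regions occupied 5399 windows, of which 3861 held only 1 and 49 held 5 or more. In 1170 of these windows there was no WT ICI peak at all, but these held at most 4 of the regions each and 17.9% of them in all. The windows with the most, 8 each, were chromosome 1 at 93700001 to 93800000 and chromosome 18 at 79200001 to 79300000. Chromosome 2 at 104900001 to 105000000 followed with 7, the first of 3 windows tied at that number. On chromosome 1 the 8 regions stood among 5 core regions, and each lay between 666 and 6864 bp from a WT ICI peak. One of them, at 93736621 to 93736825, held an AF-2 mutant Veh peak. On chromosome 18 the window had 14 AF-2 mutant ICI, 11 AF-2 mutant Tam, 1 WT ICI and 10 WT Tam peaks and no vehicle peak. Of its 8 regions, 6 formed a run of 23.4 kb between 79259734 and 79283105, and the region nearest a WT ICI peak was 910 bp from it. On chromosome 2 the 7 regions stood among 7 core regions, at 569 to 18823 bp from a WT ICI peak. The densest windows thus differed in kind: WT ICI peaks were interspersed on chromosomes 1 and 2, and nearly lacking on chromosome 18.

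**Figure D5:**
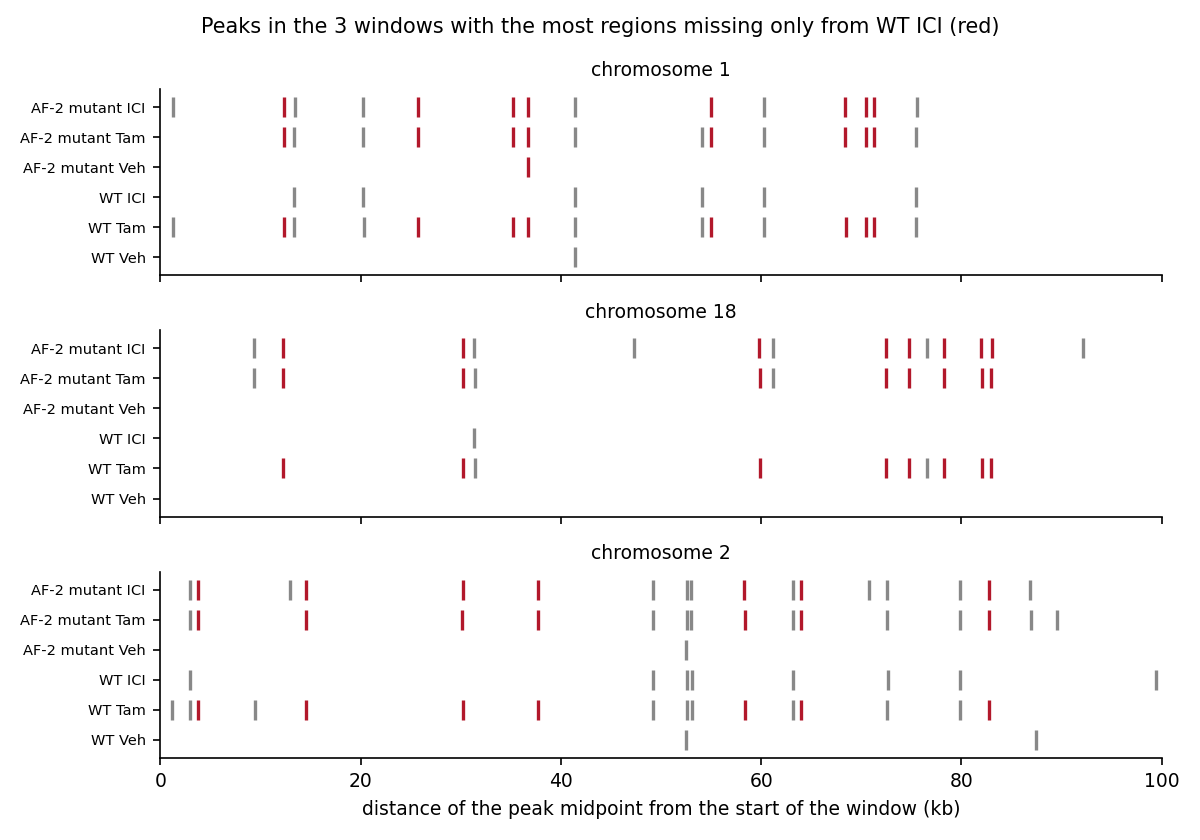
Peak midpoints (ticks) of the 6 libraries in the 3 windows of 100 kb with the most WT ICI-missing regions, by distance from the start of the window (kb); peaks in WT ICI-missing regions are red and other peaks grey. The windows held 8, 8 and 7 such regions beside 6, 1 and 8 WT ICI peaks.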

How the data were processed

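ERα ChIP-seq peak lists of 6 libraries were analysed, 1 per combination of genotype and treatment, with 6 animals in each group. The values are positions (chromosome, start, end) of peaks that were all 200 bp wide. The deposited lists carry no count, height or p-value, so depth is unknown. The build was mm9 and the tools included HOMER 4.10.3, Bowtie2 2.1.0, bedtools 2.24.0, Picard and SAMtools, per the submitters' processing notes. Not given in the sources used here are their roles, the peak threshold and any use of input. A more permissive threshold or deeper sequencing lengthens a list and lowers its missing share.

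Peaks were merged in Python 3.11.15 (pandas 2.3.3, scipy 1.17.1). The 65146 regions matched those of bedtools 2.31.1, with 0 differences, and the code was tested on made-up lists. Distances run between region or peak edges. Intervals are exact binomial (Clopper-Pearson) or, for medians, from order statistics, at 95%. Groups were taken from sample titles. With 1 library a group, no p-value was computed. The regions, comparisons and measures were chosen with earlier results of these data known. The named regions follow a written rule: the windows of 100 kb with the most regions, and the regions with the tightest midpoints. The runs and the regions nearest the 1 bp boundary were added after their values were seen. Gene positions, gene lists and motifs were planned, but an mm9 genome or annotation was not used here, so these were left out.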

Additional observations from a re-analysis of the deposited data

How the results depend on the processing

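Of 77 values under alternatives, 54 stayed within 1.5 times the count or within the 95% interval of the value reported, and 23 moved; no order between the WT ICI-missing regions and the core turned for WT Veh. The number of WT ICI-missing regions ran from 6469, when WT ICI peaks within 1000 bp also counted as present, to 7730 with a 100 bp overlap. The core share with AF-2 mutant Veh was 7.49% with a 100 bp overlap and 9.26% and 10.02% with gaps of 100 and 300 bp joined, and with either vehicle 18.8%, 20.4% and 21.3%. Without WT ICI were 34.1% of AF-2 mutant Veh only and 39.8% of both-vehicle regions with a 100 bp overlap. With gaps of 300 bp joined these were 26.3% and 30.6%, and 34.6% with no vehicle. Leaving out regions within 1000 bp of WT ICI gave 26.8%, 31.3% and 32.5%, and 5.32% for WT Veh only. For these last 2 settings the median distance to WT ICI was 12904 and 15406 bp, with 43.3% and 38.0% within 10 kb. A core region lay within 5 and 20 kb of 23.1% and 48.7%, and another WT ICI-missing region of 11.0% and 30.5%. The splits by vehicle were tried after the data were seen. No paired analysis was possible because each group has 1 library. Motif and gene alternatives were not run. Depth is unknown, so a missing peak sets no limit on binding.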

Other observations

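Over all merged regions, whatever other ligand libraries they held, 1096 had a peak of both vehicle libraries. AF-2 mutant ICI was present in 82.0% of them (79.6 to 84.3), AF-2 mutant Tam in 82.8% (80.4 to 84.9), WT ICI in 47.8% (44.8 to 50.8) and WT Tam in 72.5% (69.8 to 75.2). At the 2616 regions with a WT Veh peak only, the shares were 76.5% (74.8 to 78.1), 74.1% (72.4 to 75.8), 76.7% (75.1 to 78.3) and 82.3% (80.7 to 83.7) in the same order. At the 3931 regions with an AF-2 mutant Veh peak only, they were 56.8% (55.3 to 58.4), 57.3% (55.7 to 58.8), 31.1% (29.7 to 32.6) and 36.9% (35.4 to 38.4). A WT ICI peak was thus present less often at sites shared by the vehicle libraries than at sites of WT Veh alone, and the same held for WT Tam by a smaller margin, whereas both mutant ligand libraries were present more often. These splits were made after the data were seen, and no difference was tested.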
